A study of Mus musculus with 21 samples.

Results

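A group of 8 surface and membrane genes of muscle cell fusion and cell contact were examined in CUT&RUN peak lists of the proteasome activator PSME3 and of the histone mark H3K4me3 in C2C12 myoblasts. The genes were Mymk, Mymx, Cdh15, Cdh2, Ncam1, Cdon, Boc and Neo1. They were chosen by name for what their proteins do, with earlier results of these data known. They make up 8 of the 21896 protein-coding genes of the GRCm38.p6 gene table. A gene was given every peak that overlapped, by at least 1 bp, its span widened by 1 kb on each side, and the rule for the genes uses no peak value.

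C2C12 is an established mouse myoblast line that fuses into myotubes when serum is withdrawn. CUT&RUN cuts and releases DNA next to the protein that an antibody has bound in permeabilised cells. The cycling cells were kept in medium with 20% fetal bovine serum, frozen in 10% DMSO and assayed without fixation, in 3 libraries for each antibody and a pooled list. The day 2 cells had spent 48 h in 2% horse serum and gave 1 library per antibody in each of 4 preparations, which were fresh native, frozen native, fresh crosslinked and frozen crosslinked. Crosslinked cells had been treated with 0.1% formaldehyde for 5 min. The labels name no transgene, knockdown or drug for any of these libraries, and all cells came from the same line.

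Myoblasts find one another, adhere through cadherins and other surface proteins, and then merge their membranes. Myomaker (Mymk) and myomixer (Mymx) are the muscle-specific membrane proteins that carry out the merger, and both genes are switched on as myoblasts differentiate. Cdh15 (M-cadherin), Cdh2 (N-cadherin) and Ncam1 hold neighbouring cells together, while Cdon, Boc and Neo1 are immunoglobulin superfamily receptors that pair with cadherins and pass contact signals to the differentiation program. H3K4me3 marks the start sites of genes that are active or ready to be transcribed.

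How deeply each library was sequenced is unknown from these lists, and a missing peak means only that none was called. The cycling H3K4me3 libraries held 18077, 40999 and 19365 peaks in replicates 1, 2 and 3. Replicate 2 stood apart, with a median width of 662.0 bp against 1781 bp and 1784 bp in the others. The day 2 H3K4me3 lists held 14372 to 20245 peaks, and the fresh native one covered the least, 23.63 Mb against 31.72 to 35.09 Mb. The cycling PSME3 libraries held 776 to 3070 peaks and those of day 2 held 18 to 186. The labels were checked against marker genes. All 4 myoblast markers (Myod1, Myf5, Des, Pax7) had an H3K4me3 peak in every one of the 7 libraries. Of 5 genes of differentiating muscle, Myog, Myh3, Acta1 and Ckm had a peak in 0 of 3 cycling and 4 of 4 day 2 libraries, and Myh8 had none. In the pooled cycling list, however, 634 bp were covered at Ckm. Of 6 markers of other cell types, Ptprc, Alb, Cdh5 and Epcam had no peak, Cdh1 had one in 2 cycling libraries and Gfap in 1.

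To see which of the genes carried either signal, members with at least 1 peak were counted in each list. The H3K4me3 lists held all 8 genes in the pooled cycling list (60.9% of all protein-coding genes had a peak there), 7 in replicate 1 (58.8%), 8 in replicate 2 (63.6%) and 6 in replicate 3 (59.1%). All 8 were present in each day 2 list, against 56.9% of all genes in the frozen native, 54.5% in the fresh native, 57.6% in the frozen crosslinked and 57.5% in the fresh crosslinked library. The 6 cell contact genes had a peak in all 7 libraries, as did 53.2% of all genes. Only Mymk and Mymx lacked one anywhere, and only in cycling cells.

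PSME3 was listed at fewer of them. The pooled cycling list had a peak at 5 genes (Cdh2, Ncam1, Cdon, Boc and Neo1), where 21.9% of all protein-coding genes had one. Among the 13343 genes with a pooled H3K4me3 peak, which include all 8 members, the share was 35.6%. The members' count was above both shares, and the excess was not tested. In single libraries the count was 2 in replicate 1 (Cdh2 and Cdon, against 4.56% of all genes), 1 in replicate 2 (Ncam1, against 3.6%) and 3 in replicate 3 (Ncam1, Cdon and Neo1, against 13.4%). No member had a PSME3 peak on day 2, when few genes had any: 0.95% in the frozen native, 0.0868% in the fresh native, 0.402% in the frozen crosslinked and 0.0776% in the fresh crosslinked list. With so few listed genes, an empty day 2 list says little about these 8. In cycling cells a library listed 7.0 ± 1.0 members for H3K4me3 and 2.0 ± 1.0 for PSME3 (SD, n = 3 each), and the antibodies did not overlap. By replicate number the difference was 5.0 ± 2.0 (SD, n = 3). These H3K4me3 lists reached 58.8 to 63.6% of all genes and the PSME3 lists 3.6 to 13.4%, so the gap is not particular to the members.

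**Figure D1:**
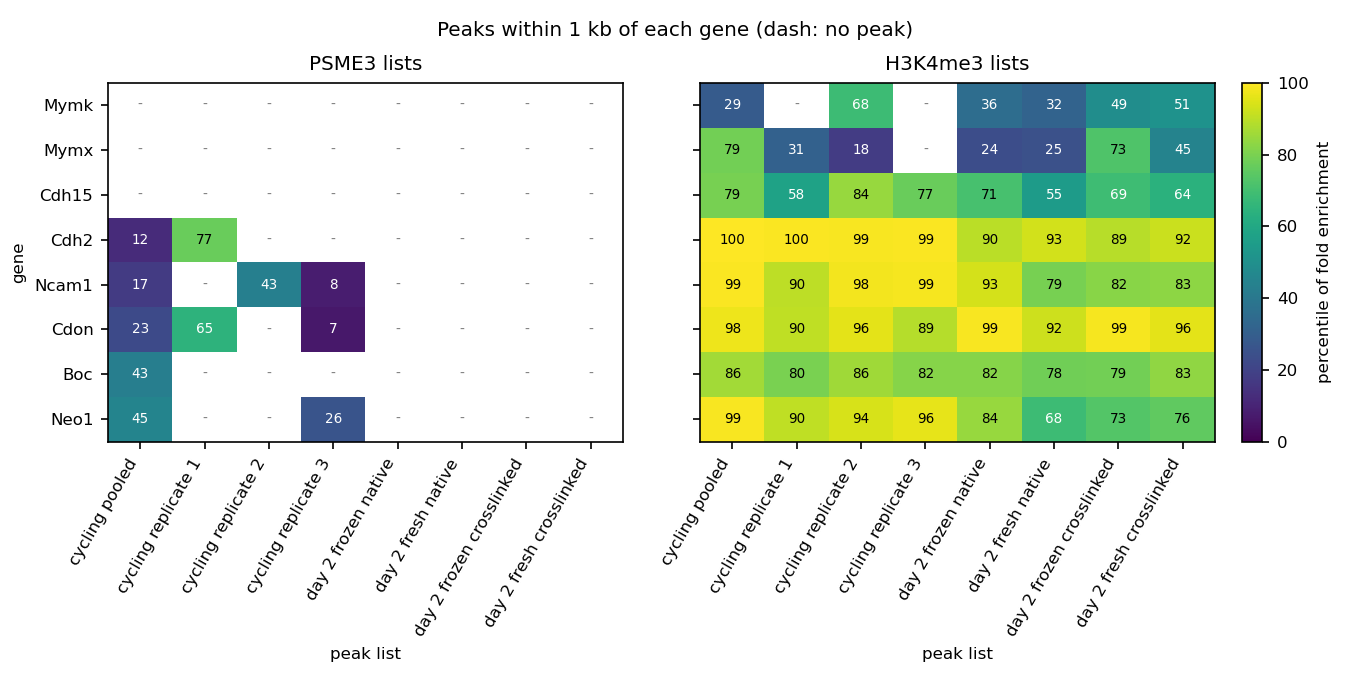
Percentile of fold enrichment, within its own list, of the strongest peak within 1 kb of each gene (rows), for 8 PSME3 lists (left) and 8 H3K4me3 lists (right); a dash means that no peak was listed. PSME3 entries stop at the 4 cycling lists, and in H3K4me3 the gaps fall on Mymk in cycling replicates 1 and 3 and on Mymx in cycling replicate 3.

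Mymk, the fusion protein myomaker, spans chr2:27061636-27072161 (10526 bp). Its H3K4me3 peaks covered 0, 629 and 0 bp in cycling replicates 1, 2 and 3. On day 2 they covered 2694 bp in the frozen native, 2930 bp in the fresh native, 3391 bp in the frozen crosslinked and 3691 bp in the fresh crosslinked library. Every day 2 library was thus above every cycling library, at 3176 ± 448.8 bp (SD, n = 4) against 209.7 ± 363.2 bp (SD, n = 3). In a two-sided exact permutation test of 3 against 4 libraries this gave p = 0.0571, the smallest value that the design allows, and 0.153 after Benjamini-Hochberg adjustment over all 14385 genes tested. The day 2 signal was mostly 1 broad peak of 2694 to 2886 bp that began 7.7 to 7.8 kb above the lower boundary of the gene and ended at the upper one, from 65 bp inside it to 72 bp outside. The short cycling peak of replicate 2 lay at the inner end of the same stretch. It stood at the 68.5th percentile of its own list, with a fold enrichment of 3.44. The day 2 peaks stood at percentiles 35.7 (frozen native, fold enrichment 8.37), 32.0 (fresh native, 4.17), 48.9 (frozen crosslinked, 5.52) and 51.0 (fresh crosslinked, 5.20). Fold enrichments are not comparable between lists, and percentiles depend on how many peaks a list holds. With the 14372 peaks of smallest q from each library, the Mymk peak was at percentile 9.99 in cycling replicate 2 and at 28.1 to 32.0 on day 2. Replicate 2, the library that stood apart, alone supplied a cycling peak, and without it the cycling values were both 0.

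Mymx, whose small protein works with myomaker in the merger, is a gene of 1236 bp at chr17:45600961-45602196. Cycling replicate 1 had 33 bp of H3K4me3 peak in the window, replicate 2 had 470 bp and replicate 3 had 0 bp. The day 2 libraries had 1981 bp (frozen native), 1730 bp (fresh native), 1955 bp (frozen crosslinked) and 2579 bp (fresh crosslinked). Here too the stages did not overlap, with means of 167.7 ± 262.3 bp (SD, n = 3) and 2061 ± 363.1 bp (SD, n = 4), an exact permutation p of 0.0571 and an adjusted p of 0.153 over all genes. Slc29a1, a nucleoside transporter gene, ends 1343 bp below Mymx, and its peaks reach towards the Mymx window. The pooled cycling peak assigned to Mymx ran over 8817 bp and put only 58 bp into the window, and the frozen crosslinked day 2 peak of 10959 bp joined both genes. All 4 day 2 peaks at Mymx began inside the Slc29a1 span. The peak strength at Mymx therefore cannot be told apart from that of Slc29a1 in those lists. The covered length was also higher on day 2 within the Mymx span itself, by 926.5 bp, with the same exact permutation p of 0.0571. In the full lists the percentile of the strongest peak overlapped between the stages for both genes (Mymk 22.8 ± 39.5 in cycling cells and 41.9 ± 9.44 on day 2, Mymx 16.2 ± 15.5 and 41.5 ± 22.9; SD, n = 3 and 4, absent peaks set to 0). With equal numbers of peaks every day 2 library was above every cycling library at both (Mymk 3.33 ± 5.77 and 30.5 ± 1.71, Mymx 4.39 ± 7.61 and 31.7 ± 20.1), each with an exact permutation p of 0.0571 and an adjusted p of 0.270 over all genes. Within the Mymx span alone, in the full lists, the percentiles also separated, by 35.6 points (exact permutation p = 0.0571). The cycling replicate 1 peak, which ended 968 bp below the gene, then counted as absent. The day 2 peaks ranked were still those that began inside Slc29a1, so this is no separate measure of strength at Mymx. With a 3 kb window the difference was -17.4 points.

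**Figure D2:**
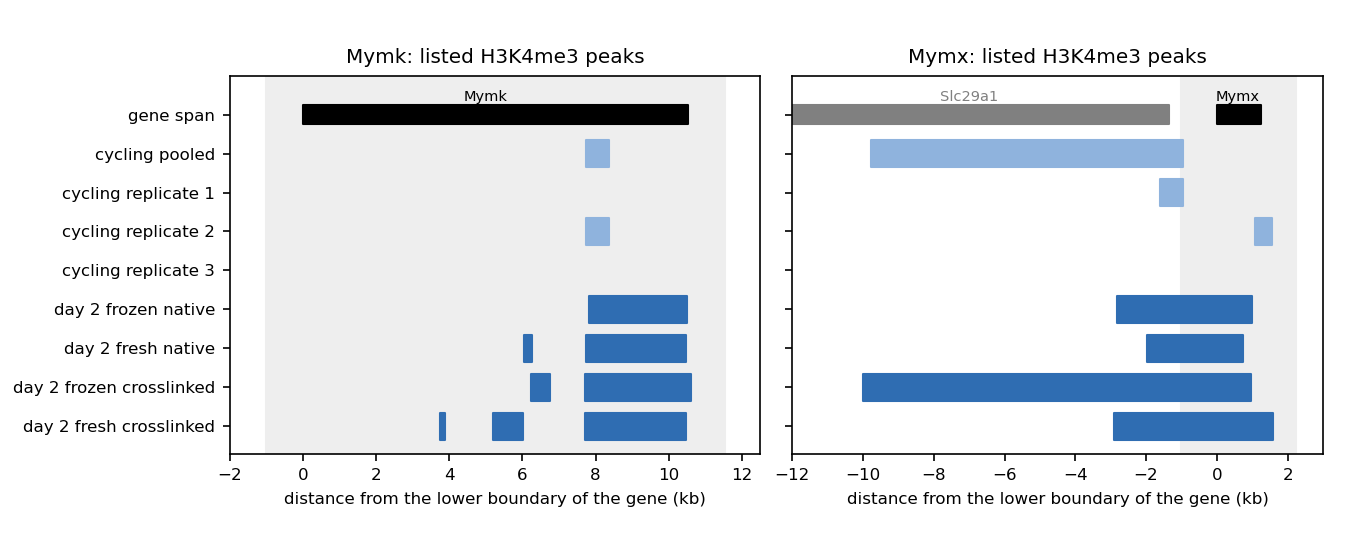
Position of each listed H3K4me3 peak (horizontal bars) around Mymk (left) and Mymx (right) in kb from the lower boundary of the gene, for 4 cycling lists (light blue) and 4 day 2 lists (dark blue); black bars are the genes, the grey bar is Slc29a1 and the shaded band is the gene widened by 1 kb. The day 2 bars fill the stretch up to the upper boundary of Mymk and cover most of Mymx, where the cycling lists have short bars or none.

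How common such a pattern is was read from all genes. Of the 14385 protein-coding genes with H3K4me3 in any library, 1.02% had every day 2 library above every cycling library in covered length, and 36.2% had every one below. Mymk and Mymx were the 2 members above, and Boc and Neo1 the 2 below. The count below was no larger a share than that of all genes. When covered length was instead divided by all the length that its list covered (given in ppm), the split of all genes turned, with 18.13% above and 7.265% below. The median log2 ratio of day 2 to cycling over all genes was then 0.14, against -0.34 in base pairs. Against those medians Mymk stood at 4.78 in ppm and 3.92 in base pairs, and Mymx at 4.42 and 3.62. The size of both ratios rests on cycling replicate 2, with 629 bp at Mymk and 470 bp at Mymx. Replicates 1 and 3 had 0 and 0 bp at Mymk, and 33 and 0 bp at Mymx. Cdh15, Cdh2 and Cdon joined the genes above in ppm, and no member was below. In the strength percentile 1.15% of all genes had day 2 above and 17.4% had it below, and the members counted 0 above and 2 below (Cdh2 and Neo1). With equal numbers of peaks the shares were 8.86% above and 12.3% below of 13007 genes, and Mymk, Mymx and Cdon were above and Cdh2 below. For all genes at once, in the full lists, the smallest adjusted p was 0.153 for covered length and 0.309 for the percentile, so no gene passed a threshold of 0.05 in either measure, while 5360 genes reached the smallest possible p for covered length.

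Day 2 also differs from cycling in preparation, apart from the frozen native library. That library alone was 2484 bp above the cycling mean at Mymk and 1813 bp above at Mymx. Other muscle genes came closest to this pattern. The 3 genes nearest to Mymk, by the mean absolute difference in log2(covered bp + 100) over the 7 libraries, were Klhl41 (0.27), Lmod3 (0.30) and Hjv (0.35). Those nearest to Mymx were Lmod3 (0.21), Myom3 (0.22) and Hjv (0.27). Klhl41 and Lmod3 encode proteins of the sarcomere and its thin filaments, Myom3 one of its M-band, and Hjv (hemojuvelin) a repulsive guidance molecule that binds Neo1. The cycling libraries of each had peaks in replicate 2 alone, as at Mymk.

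**Figure D3:**
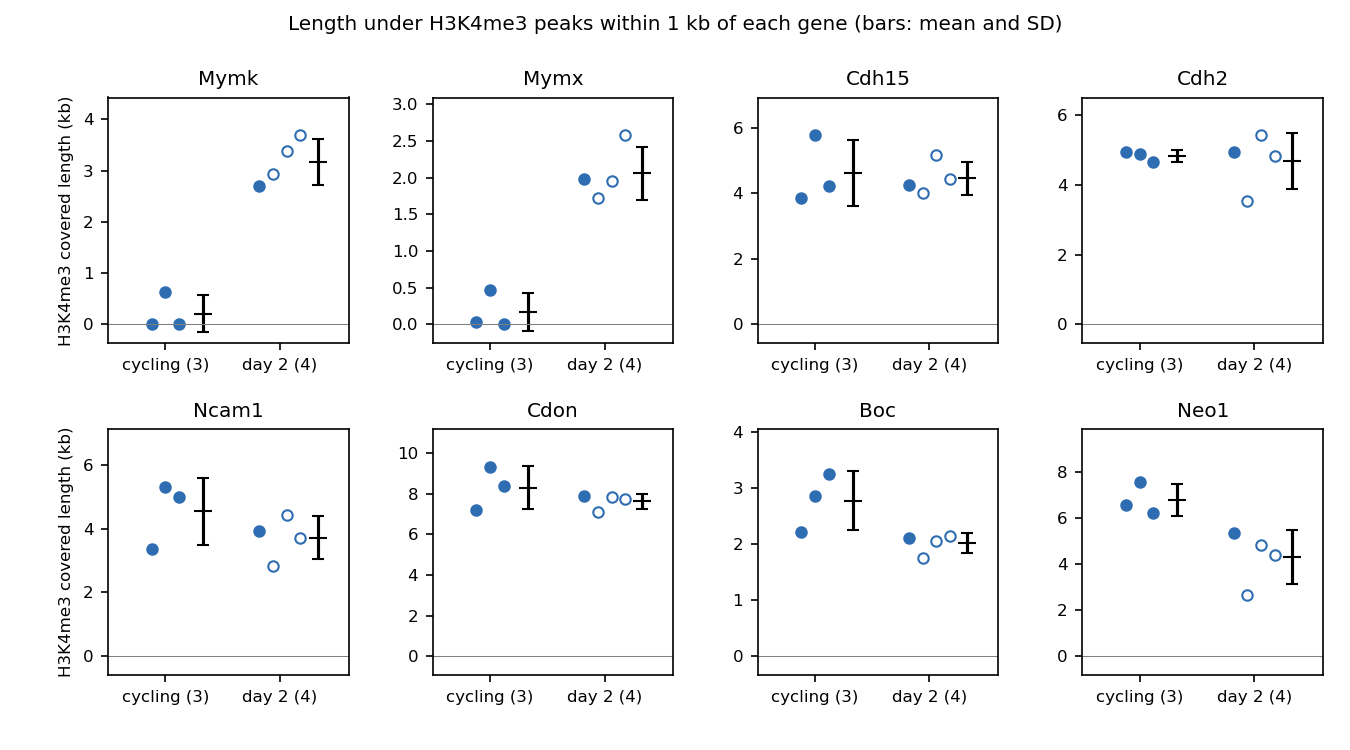
H3K4me3 covered length (kb, vertical axis) within 1 kb of each of the 8 genes in 3 cycling and 4 day 2 libraries; each point is a library, filled points are frozen native and open points the other preparations, and bars give the mean and SD. All day 2 points lie above all cycling points at Mymk and Mymx and below them at Boc and Neo1, and the stages overlap in the other panels.

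Cdh15, the cadherin gene most specific to skeletal muscle, was the only member with H3K4me3 in every list and PSME3 in none, pooled lists included. Boc also had no PSME3 peak in any single library, but it had a pooled one. The gene spans chr8:122848374-122867397. Its peaks covered 3856, 5779 and 4239 bp in cycling replicates 1, 2 and 3. On day 2 they covered 4265 bp (frozen native), 4011 bp (fresh native), 5185 bp (frozen crosslinked) and 4428 bp (fresh crosslinked). The stages overlapped, with 4625 ± 1018 bp against 4472 ± 505 bp (SD, n = 3 and 4; exact permutation p = 0.857). Nearly all of this was 1 peak over the start of the gene, with a fold enrichment of 14.9 in the pooled list, at the 79.5th percentile. The genes nearest to it in covered length over the 7 libraries were Tlk2 (mean absolute log2 difference 0.07), Gpc1 (0.07) and Cdc42ep1 (0.08), and Tlk2 and Gpc1 had a pooled PSME3 peak.

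RefSeq promoters of GRCm38.p6 were at hand for 3 of the 8 genes. The 250 bases before the start are shown for Cdh15 and Neo1, because an H3K4me3 peak overlapped both in all 7 libraries while a PSME3 peak overlapped only Neo1. All 250 bases of Neo1 lay under H3K4me3 in each library. At Cdh15 all 250 did in cycling replicates 2 and 3 and in the frozen crosslinked day 2 library. The peak edge left 136 bases under it in the frozen native, 89 in cycling replicate 1, 71 in the fresh crosslinked and 18 in the fresh native library. Capitals mark the E-box letters CANNTG in Cdh15 (chr8:122848124-122848373, plus strand) and each CG in Neo1 (chr9:59036442-59036691, minus strand), both written 5′ to 3′.
Cdh15: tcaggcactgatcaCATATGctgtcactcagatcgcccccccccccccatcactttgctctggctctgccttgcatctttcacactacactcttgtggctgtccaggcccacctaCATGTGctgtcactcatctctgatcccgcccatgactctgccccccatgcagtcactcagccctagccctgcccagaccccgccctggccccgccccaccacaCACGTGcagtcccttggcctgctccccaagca
Neo1: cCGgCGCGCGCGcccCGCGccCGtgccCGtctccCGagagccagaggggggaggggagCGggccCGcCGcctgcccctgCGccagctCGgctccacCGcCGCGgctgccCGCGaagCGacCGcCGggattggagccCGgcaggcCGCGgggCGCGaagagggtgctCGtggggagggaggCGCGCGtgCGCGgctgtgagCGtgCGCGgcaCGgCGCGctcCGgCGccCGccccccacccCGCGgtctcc

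Cdh15 had 3 E-boxes and 5 CG in these bases, and Neo1 had 0 and 45. Over the full 300 bases, which add the first 50 of the transcript, the counts were 4 and 7 for Cdh15 and 0 and 54 for Neo1. Of the 32817 promoters of that length, 72.32% held a CANNTG on either strand (the letters read the same on both), the median was 7 CG, and 99.75% had no more CG than Neo1. The narrower E-box forms CAGCTG (16.31% of promoters) and CACCTG or CAGGTG (20.22%), the letters TATAAA (13.62%) and the MEF2 site (3.187%) were in neither. A pooled H3K4me3 peak overlapped 40.65% of all these promoters and a pooled PSME3 peak 10.4%. The median was 22.0 CG where a pooled H3K4me3 peak overlapped and 3.0 where none did, so Cdh15 was a promoter poor in CG among those with the mark. The third promoter, that of Cdon at chr9:35451826-35452125, lies 30548 bp inside the gene and had no peak of either antibody in any list. The Cdon peaks described next were at the lower boundary of the gene.

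Cdh2, Ncam1, Cdon, Boc and Neo1, the genes with a pooled PSME3 peak, had their strongest H3K4me3 peak at 1 end of the gene in every list. At that end the PSME3 peak was a weak one within a broader H3K4me3 domain. Each of the 5 PSME3 peaks lay wholly within a pooled H3K4me3 peak. The study reports that most of its cycling PSME3 peaks, by a wide margin, also carried H3K4me3, so such overlap is not particular to these genes. The 5 PSME3 peaks were 525 to 1681 bp wide, all above the median width of 431.0 bp in the pooled PSME3 list. Their fold enrichments of 2.65 to 2.89 all fell below the median of 2.92 for the 5812 peaks of that list.

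At Cdh2, encoding the N-cadherin of early myoblasts, the PSME3 peak was chr18:16808646-16809654 (1009 bp, fold enrichment 2.65, q = 0.0235 from the peak caller). It covered the upper boundary of the gene and met a peak of 171 bp in PSME3 replicate 1. The H3K4me3 peak around it had a pooled fold enrichment of 27.4, at the 99.9th percentile of its list and the highest of the 8 genes. At Ncam1, which encodes a neural cell adhesion molecule also found on myoblasts, the PSME3 peak chr9:49796900-49797424 (525 bp, fold enrichment 2.69, q = 0.0170) was centred 2231 bp inside the upper boundary. It was the only one met by peaks of 2 replicates, 2 (q = 0.0273) and 3 (q = 0.0728).

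The 3 receptors differed in how far replicates bore out the pooled call. Cdon had chr9:35421223-35422143 (921 bp, fold enrichment 2.73, q = 0.0397) across its lower boundary, met by a peak of replicate 3 with q = 0.0609, while the peak of replicate 1 began 3.3 kb inside the boundary and did not meet it. Neo1, a receptor for netrins and repulsive guidance molecules, had the widest, chr9:59035428-59037108 (1681 bp, fold enrichment 2.89, q = 0.0436), across its upper boundary and over the promoter shown above. A peak of 512 bp in replicate 3 met it. Boc, the close relative of Cdon, had chr16:44558018-44558812 (795 bp, fold enrichment 2.87, q = 0.0139), which no replicate list held. The microRNA gene Mir3081 lies under both the PSME3 and the H3K4me3 peak of Boc. The other genes in the members' windows, Gm30064 at Boc, Gm11149 at Ncam1 and LOC115487300 at Cdon, overlapped neither the PSME3 peak nor the strongest H3K4me3 peak of the pooled lists. All 5 sites had an H3K4me3 peak in 4 of 4 day 2 lists and a PSME3 peak in 0 of 4. All 5 had q under 0.05, and 0 had q of at most 0.01. The shares of the whole pooled list at these limits are not given here. With the same limit of 0.05 on the replicate lists, replicate 3 listed 1 member in place of 3, so Ncam1 was met by replicate 2 alone and Cdon by none.

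**Figure D4:**
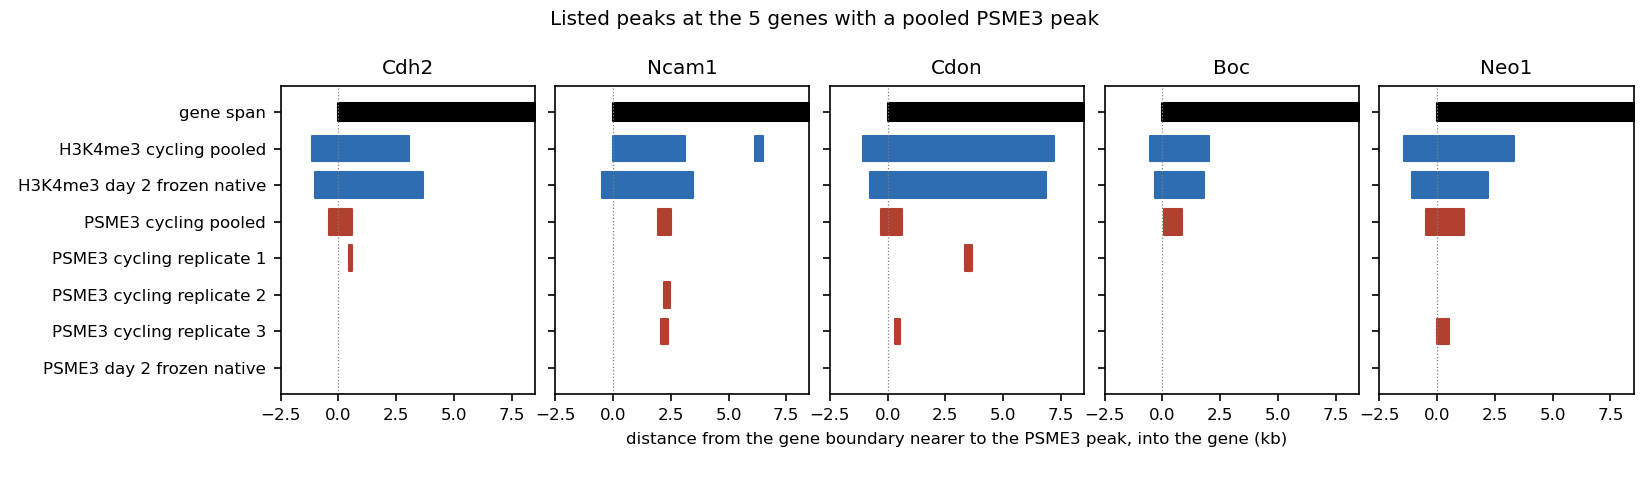
Listed H3K4me3 peaks (blue) and PSME3 peaks (red) at the 5 genes with a pooled PSME3 peak, in kb from the gene boundary nearer to that peak and drawn into the gene (black bars); rows are lists. Each red bar of the pooled list sits within a blue one, the replicate bars are shorter, and the day 2 PSME3 row is empty.

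The strength of H3K4me3 was compared with the presence of PSME3. In the pooled cycling list the strongest H3K4me3 peak had a fold enrichment of 27.4 at Cdh2, 24.2 at Ncam1, 23.1 at Neo1, 21.2 at Cdon and 16.5 at Boc, the genes with PSME3. It was 14.9 at Cdh15, 14.7 at Mymx (the peak shared with Slc29a1) and 2.57 at Mymk, the genes without. The members with PSME3 were thus the 5 highest of 8, with no overlap. Over all genes with a pooled H3K4me3 peak the medians were 16.01 for the 4755 with a pooled PSME3 peak and 12.95 for the 8588 without, and the peaks were 3463 and 2568 bp wide in the median. A window over a long gene can catch more peaks, and the members' median length was 79980 bp against 17150 bp for all protein-coding genes. The part of length in the PSME3 count was not tested. The 5 peaks were centred within 2.3 kb of a gene boundary.

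**Figure D5:**
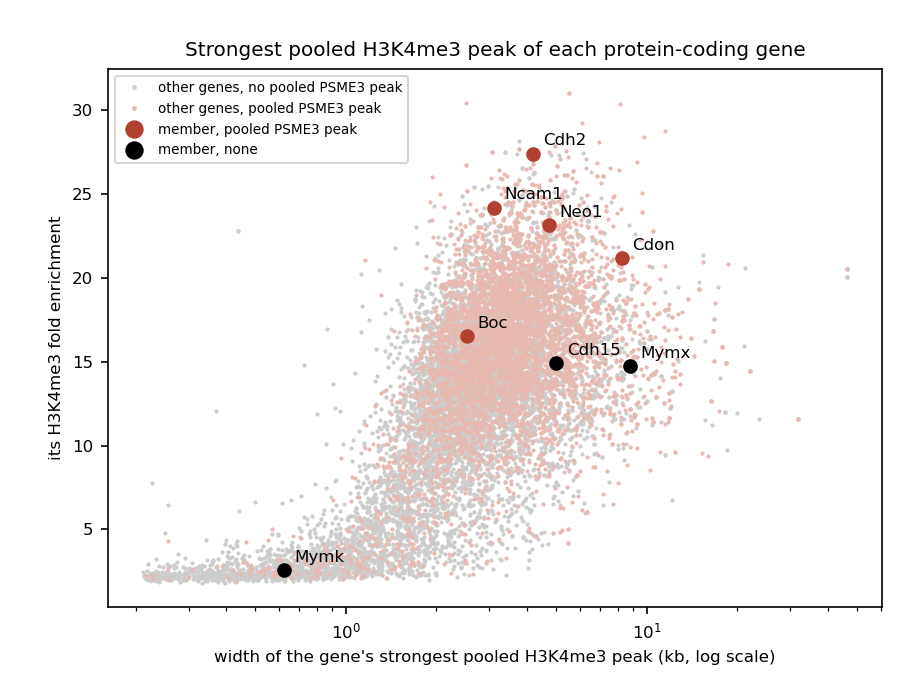
Width (kb, log scale) and fold enrichment of the strongest pooled cycling H3K4me3 peak of each protein-coding gene that has one, with the members in large points; red stands for genes with a pooled PSME3 peak and grey or black for genes without. Cdh2, Ncam1, Neo1 and Cdon lie near the top of the cloud, Boc and Cdh15 in its middle, Mymk at its lower left, and the Mymx point is the peak shared with Slc29a1.

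H3K4me3 at the same 5 genes was then followed to day 2. Neo1 peaks covered 6554, 7562 and 6232 bp in cycling replicates 1, 2 and 3. The day 2 values were 5344 bp (frozen native), 2668 bp (fresh native), 4817 bp (frozen crosslinked) and 4390 bp (fresh crosslinked). All day 2 libraries were below all cycling ones, 4305 ± 1159 bp against 6783 ± 694 bp (SD, n = 4 and 3; exact permutation p = 0.0571, adjusted p = 0.153 over all genes). The percentile of its strongest peak was lower as well, 75.5 ± 6.73 against 93.5 ± 2.91 (exact permutation p = 0.0571), but with equal numbers of peaks the libraries overlapped, at 70.0 ± 9.21 and 88.4 ± 6.24 (exact permutation p = 0.114). Neo1 kept this direction in ppm, where the stages overlapped. It also had a second H3K4me3 peak 102 to 105 kb above its lower boundary, in 3 of 3 cycling and 3 of 4 day 2 libraries, with fold enrichment 5.99 in the pooled list and no PSME3.

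Boc covered 2215, 2869 and 3254 bp in cycling replicates 1, 2 and 3. On day 2 it covered 2115 bp (frozen native), 1758 bp (fresh native), 2063 bp (frozen crosslinked) and 2150 bp (fresh crosslinked). Day 2 was again below, by only 65 bp between the nearest libraries (2022 ± 179 against 2779 ± 525 bp; SD, n = 4 and 3; exact permutation p = 0.0571). In ppm the stages overlapped and the sign turned. The percentile of its peak overlapped between the stages, 80.6 ± 2.43 on day 2 and 82.6 ± 2.99 in cycling cells, and with equal numbers of peaks day 2 had the higher mean, 76.4 ± 4.50 against 70.1 ± 9.0, again with overlap.

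Cdh2 peaks covered 4947, 4890 and 4642 bp in cycling replicates 1, 2 and 3. On day 2 they covered 4951 bp (frozen native), 3531 bp (fresh native), 5418 bp (frozen crosslinked) and 4811 bp (fresh crosslinked), and the stages overlapped (exact permutation p = 0.971). Its strength percentile did not overlap, at 99.3 ± 0.282 in cycling and 91.1 ± 1.88 on day 2 (SD, n = 3 and 4; exact permutation p = 0.0571, adjusted p = 0.309 over all genes). In ppm its covered length was above on day 2.

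For Ncam1 the values were 3348, 5302 and 4975 bp in cycling replicates 1, 2 and 3. They were 3914 bp (frozen native), 2826 bp (fresh native), 4432 bp (frozen crosslinked) and 3694 bp (fresh crosslinked) on day 2, which overlapped (exact permutation p = 0.286). Of the 8 genes, Cdon had the broadest peak not shared with another gene's peak. It was 6962, 8046 and 7808 bp wide in cycling replicates 1, 2 and 3. With a second peak inside the gene, Cdon had 7220, 9325 and 8379 bp covered in those replicates. Its day 2 lengths were 7877 bp (frozen native), 7088 bp (fresh native), 7826 bp (frozen crosslinked) and 7727 bp (fresh crosslinked), and these overlapped too (exact permutation p = 0.343). Its percentile was 91.7 ± 3.74 in cycling and 96.4 ± 3.12 on day 2 (SD, n = 3 and 4), and the libraries overlapped (exact permutation p = 0.171). With equal numbers of peaks they did not, at 87.0 ± 1.86 and 95.8 ± 3.19 (exact permutation p = 0.0571, adjusted p = 0.270 over all genes). Over the 8 members the median of the per-gene differences between stages was -415.5 bp, beside -483.8 bp over all genes tested, and -5.12 percentile points beside -8.54.

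The wider set of fusion and contact genes was read in the same way. Of 62 further genes in 5 lists, 22 had a pooled PSME3 peak (35.48%, beside 21.9% of all protein-coding genes) and 51 a pooled H3K4me3 peak (beside 60.9%), and 0 had PSME3 in a day 2 list. Among the 51 with H3K4me3 the PSME3 share was 43.14%, beside 35.6% of all genes with a pooled H3K4me3 peak, and no difference from these shares was tested. By list, PSME3 was at 6 of 24 fusion membrane and surface proteins, 3 of 6 cadherins and catenins, 5 of 11 ligands and partners of Cdon, Boc and Neo1, 0 of 4 partners of Ncam1, and 8 of 17 actin and membrane remodelling genes. The highest fold enrichments were 3.62 at Ctnna1, the alpha-catenin that ties cadherins to actin, and 3.46 at Spag9 (JLP), a scaffold that binds the tail of Cdon. They were followed by Myof (3.28), a membrane repair and fusion protein, Ntn1 (3.19), a ligand of Neo1, Sh3pxd2a (3.17), a scaffold of invasive protrusions, and Ehd1 (3.11), an endocytic recycling protein. Myh9, the non-muscle myosin heavy chain, had 3.03, and Jup, the plakoglobin of cadherin junctions, had 3.00. Kirrel3 (2.99) and Kirrel (2.92), immunoglobulin superfamily relatives of the fly fusion receptors, completed the 10. Of these 10, Ehd1 and Myh9 had a PSME3 peak in 2 of 3 replicate lists, Jup and Kirrel3 in 0, and the others in 1. Over all 22 the fold enrichment ran from 2.55 at Abl1 to 3.62, a range that takes in the 5 members.

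Of the 56 wider genes tested between stages, 0 had every day 2 library above every cycling library in H3K4me3 covered length and 15 had every one below, beside 1.02% and 36.2% of all genes tested. Neither count stands out from those shares. Among those 15, the lowest ratios of day 2 to cycling means were 0.535 at Dnm2, the dynamin of membrane scission, 0.583 at Trio, a guanine nucleotide exchange factor for Rac, and 0.597 at Abl1, a kinase bound by Cdon. Arhgap26 (0.637), a membrane-bending protein, Cd9 (0.641), a tetraspanin, and Ehd2 (0.669), an ATPase of membrane necks, came next. Each had an exact permutation p of 0.0571 and an adjusted p of 0.153 over all genes.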

How the data were processed

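CUT&RUN peak lists of C2C12 cells were analysed, 14 of them from single PSME3 and H3K4me3 libraries and 2 pooled by the authors from the cycling replicates. The IgG libraries were not analysed here. Per the study's methods and processing notes, the authors used Trim Galore for trimming, Bowtie2 for alignment and MACS2 for peak calling, and the notes name the build mm10; versions and options are not given in the sources used here. The deposited broad-peak lists hold a fold enrichment for each peak, a ratio to local background that the authors' caller computed. The deposited lists also give the −log10 of each p-value and q-value, of which only the q-value was used, and all q were under 0.1. Fold enrichment ranks peaks within a list only, and lists are compared by its percentile. The depth is unknown, so no counting interval was made.

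Peaks were assigned to GRCm38.p6 RefSeq gene spans widened by 1 kb. The gene table has no strand, so "lower" and "upper" boundaries mean the smaller and larger coordinate. Coordinates are 1-based. Covered length is the number of bases of a widened span under peaks. Stages were compared for each gene with a two-sided exact permutation test over the 3 cycling and 4 day 2 libraries (35 divisions), with Benjamini-Hochberg adjustment over all genes tested. The 4 preparations served as the day 2 replicates, and the sources do not say that they were separate cultures, so their spread may be technical. No p is given for a sum, median or count over the members, nor one adjusted over the members alone, because the members and gene lists were chosen with earlier results of these data known. The genes named are the 8 members, up to 10 wider genes with PSME3 by fold enrichment, up to 6 that separate the stages by the ratio of means, and the 3 nearest in pattern to Mymk, Mymx and Cdh15. Alternatives were the q-value limit, the window, the scaling, the ranking, the preparation and each library left out. A list cut to the 14372 peaks of smallest q per library, and the split of all genes without a library, were added after seeing the data.

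PSME3 and H3K4me3 libraries share replicate numbers. The deviations of their log2 peak shares over 19 autosomes from the replicate means correlated at r = 0.54, 0.55 and 0.26 for replicates 1, 2 and 3, so the numbers were taken to pair them, although PSME3 replicate 1 also had r = 0.52 with H3K4me3 replicate 3, and PSME3 replicate 3 had r = 0.25 with H3K4me3 replicate 1, so the measure hardly tells replicates 1 and 3 apart. The scripts were tested on simulated lists. Python 3.11.15, numpy 2.4.6, pandas 2.3.3, scipy 1.17.1 and matplotlib 3.10.9 were used.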

Additional observations from a re-analysis of the deposited data

How the results depend on the processing

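Mymk, Mymx and Neo1 kept the direction of their covered length difference between stages in all 14 alternatives run for each. Over the 8 members 97 of 112 recomputed covered lengths and 109 of 112 percentiles kept theirs. No paired test of stages exists, since day 2 has no replicate numbers; the replicate block was run only for the difference between H3K4me3 and PSME3 in members listed, whose mean of 5.0 it leaves the same by construction.

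The summed covered length of the 8 members had a log2 ratio of day 2 to cycling near 0 (-0.01), which turned to 0.11 at q of at most 0.01, 0.12 with the same number of peaks per library, 0.48 in ppm of the length that a list covers and 0.0398 with the frozen native day 2 library alone; leaving out 1 library gave -0.0963 to 0.0984. The members' median percentile taken in each library, averaged per stage, differed by -8.74 points, which became -4.33 with equal numbers of peaks and -3.51 with frozen native alone. The PSME3 counts rested on weak peaks. At q of at most 0.01 the mean number of members per cycling library fell from 2.0 to 0.333 and the pooled count from 5 to 0. The pooled count was 1 among peaks met by at least 2 replicates, and 1 within 1 kb of a RefSeq start, which only 3 members have. The shares of all genes under these limits are not given here, so the falls cannot be read as particular to the members.

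Single differences that turned (day 2 minus cycling, bp) were those of Cdh15 (40.9 at q of at most 0.01 and with equal numbers, 425 without cycling replicate 2, 1.33 without fresh native, -537 to 425 over the libraries left out), Ncam1 (435 at q of at most 0.01, 573 with equal numbers) and Cdh2 (0.0833 in the gene span alone, 1.92 with equal numbers, 125 with frozen native alone, 234 without fresh native, -395 to 234 over the libraries left out). In ppm those of Cdh15 (40.6), Cdh2 (37.5), Ncam1 (15.7), Cdon (58.3) and Boc (1.19) turned. In percentile points, Mymx turned with a 3 kb window (-17.4), which takes in the Slc29a1 peak, and Cdh15 (0.144) and Boc (6.29) with equal numbers. Equal numbers also separated the stages in percentile at Mymk (27.2), Mymx (27.3) and Cdon (8.83), and ended the separation at Neo1 (-18.4). The cause of these turns was not tested for any of the genes.

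Leaving out cycling replicate 2 moved the share of all genes above on day 2 from 1.02% to 2.08%, and leaving out fresh native to 2.67%; Mymk and Mymx were above and Boc and Neo1 below in both.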

Other observations

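In none of 17 groups of 4 day 2 H3K4me3 values (covered length and percentile of each member, and the summed covered length) did 1 library stand beyond the Dixon limit.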
